A study of Drosophila melanogaster with 6 samples.

Results

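Small GTPases are molecular switches, and the genes described here encode the proteins that turn them on and off. Guanine nucleotide exchange factors (GEFs) load a GTPase with GTP and so activate it, and GTPase-activating proteins (GAPs) speed GTP hydrolysis and so return it to the inactive state. The genes were taken by the category that the authors' deposited table gives each gene: 17 rows of category gef and 17 of category gap, of which 29 (13 GEFs and 16 GAPs) had a mean normalized count above 0. They are 29 of 13727 genes in the table, and all 29 were among the 9387 genes with an adjusted p. The other 5 rows (CG15611, CG30440, CG30456, RhoGEF4 and RacGAP84C) had a mean normalized count of 0 by the authors' deposited table. The members nearest to that limit were cv-c and pbl, with mean normalized counts of 11.1 and 24.1 by the authors' deposited table.

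The samples are L3 neurons, which relay photoreceptor signals through the lamina of the fly visual system, sorted by fluorescence from Drosophila melanogaster optic lobes at 24 h after puparium formation. The mutant genotype, dFezf1, carries a mutant allele of dFezf, which encodes a zinc finger transcription factor and is also named earmuff (erm), and has 3 samples. The comparison genotype, WT, is titled FRT40 in the labels, which is a chromosome arm with a recombination site, and also has 3 samples. The driver that labels the cells, the sex of the animals and the number of animals per sample are not given in the sources used here, and genotype cannot be told apart from the date in the sample titles, which fall in December for dFezf1 and November for WT.

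Growth cones and young synapses are built on actin, and GTPases such as Rac and Cdc42 set where actin is assembled. Rac and Cdc42 are known mainly for driving protrusion through Pak kinases, WASp and the SCAR complex. At 24 h after puparium formation L3 axons are growing into their target neuropil, so the list holds genes for cytoskeletal control in a neuron that is still extending.

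The values that follow are the authors' own. For each gene their deposited table gives a mean abundance in each group, a shrunken log2 fold change of dFezf1 over WT, the standard error of that change (SE) and a p-value adjusted over all tested genes. A gene is called here when that adjusted p is under 0.05. The group means are scaled by gene length, so levels can be set side by side between genes, but their unit is not named and they carry no SD. Values per library were not used, because the library codes match no sample label, and so whether all libraries of a genotype share a change is unknown for every gene below. The cell type was checked on markers: erm had a mean abundance of 49.2 in dFezf1 and 55.1 in WT by the authors' deposited table, and dac, a lamina neuron factor, 17.6 in dFezf1 and 26.9 in WT. Glial repo was at 0.356 in dFezf1 and 0.162 in WT by the authors' deposited table, and of 5 tested markers of other lamina neurons svp alone was called, with group means of 2.02 in dFezf1 and 0.0408 in WT. None of 4 general neuron, 6 glial, 3 photoreceptor and 4 neural progenitor markers tested was called. Log2 fold changes were positive for 4 of 4 neuron, 5 of 6 glial, 3 of 3 photoreceptor, 4 of 4 progenitor and 4 of 5 other lamina neuron markers by the authors' deposited table. Summed over each list, group means were 268 in dFezf1 and 165 in WT for neuron, 8.21 in dFezf1 and 2.1 in WT for glial, 16.1 in dFezf1 and 9.57 in WT for photoreceptor, 0.552 in dFezf1 and 0.0571 in WT for progenitor and 2.72 in dFezf1 and 0.431 in WT for other lamina neuron markers. The glial sum is mostly Gs2, a glutamine synthetase gene, at 4.08 in dFezf1 and 0.262 in WT, with a log2 fold change of 1.82 ± 0.80 (SE, adjusted p = 0.119), and the photoreceptor sum mostly norpA, at 15.9 in dFezf1 and 9.55 in WT, while the photoreceptor channel gene trp was listed at 0 in both by the authors' deposited table. The part of other cell types in the results below was not tested. The level of erm does not test the genotype labels, since an allele can leave the transcript in place.

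Most of these regulators showed no detectable change in dFezf1 neurons. By the authors' deposited table, the test called 2 of the 29 genes, both of them GEFs and both higher in dFezf1, which is 6.9% of the list. Over all tested genes 640 of 9387, or 6.82%, were called in the same table, and 406 of them, or 4.33%, were higher in dFezf1, so the share called in the list is near the background. The called pair were pbl, a GEF known for its part in cytokinesis, and RhoGEF64C, a GEF known in the embryo for a role in axon guidance at the midline. No member was called lower in dFezf1, against 2.49% of all tested genes. At an unadjusted p under 0.05 there were 4 members, or 13.8%, against 14.2% of all tested genes by the authors' deposited table.

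**Figure D1:**
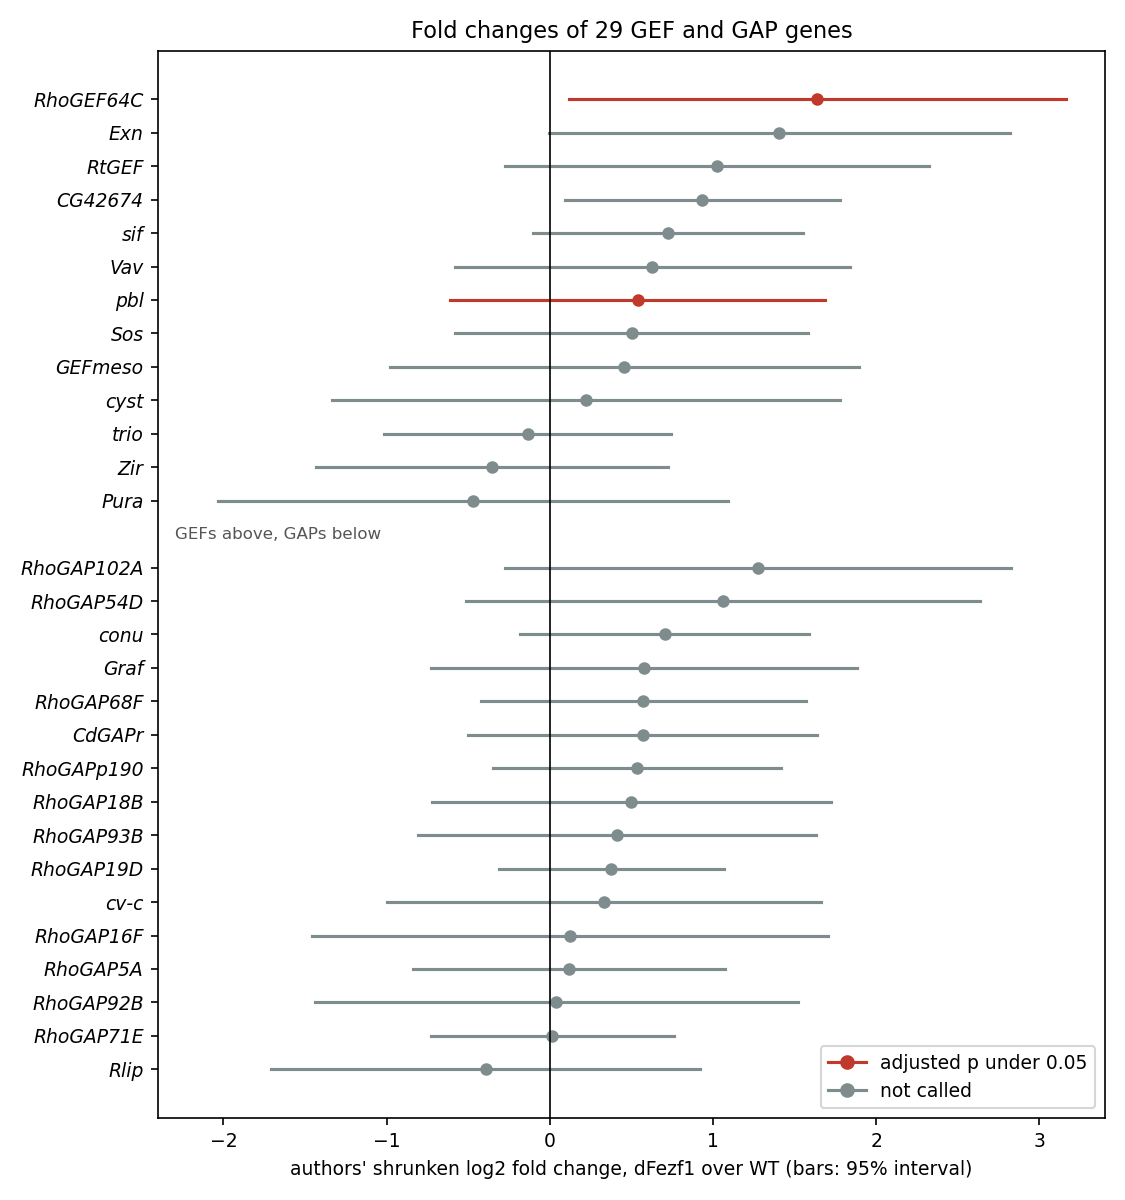
Shrunken log2 fold changes of dFezf1 over WT (x axis, log2 units) from the authors' deposited table for the 13 GEFs (upper block) and 16 GAPs (lower block). Points are the fold changes, bars their 95% intervals, and red marks the 2 called genes. The interval of RhoGEF64C lies above 0, from 0.12 to 3.16, while that of pbl spans 0.

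RhoGEF64C (FBgn0035574, chromosome 3L, 4692783 to 4796253, plus strand, build BDGP6) is a long gene that spans 103471 bases. Its mean abundance by the authors' deposited table was 1.34 in dFezf1 and 0.00142 in WT. Its transcript was thus close to the lower end of the table in WT and at a low level in dFezf1. The log2 fold change of RhoGEF64C by the authors' deposited table was 1.64 ± 0.78 (SE), with a 95% interval of 0.12 to 3.16 and an adjusted p of 0.00133. The statistic was 4.04, which is not the shrunken fold change divided by its SE. The ratio of the group means, 947, rests on a WT level near 0, and the shrunken fold change is far below it. Neither value gives a firm size for the change. The mean normalized count of RhoGEF64C was 192, against a median of 210 over all tested genes by the authors' deposited table. The 5 genes annotated inside its span all had a mean normalized count of 0 by the authors' deposited table.

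pbl (FBgn0003041, chromosome 3L, 7896109 to 7911954, minus strand, build BDGP6) had a mean abundance of 0.167 in dFezf1 and was listed at 0 in WT by the authors' deposited table. It had the lowest WT level of the 29 genes and its mean normalized count of 24.1 was the second lowest. The statistic of pbl by the authors' deposited table was 5.76 and its adjusted p 5.43e-07, while its log2 fold change was 0.54 ± 0.59 (SE), with a 95% interval of -0.61 to 1.69. That small fold change is shared by genes of its kind. Among 791 tested genes listed at 0 in WT and above 0 in dFezf1 by the authors' deposited table, the median log2 fold change was 0.53, with the 25th percentile at 0.52 and the 75th at 0.54. Of these 791 genes 209, or 26.4%, were called, and for 174 of the 209 the 95% interval included 0. The progenitor marker genes ase and grh, neither of them called, were also at low levels: ase had a group mean of 0.146 in dFezf1 and was listed at 0 in WT, and grh was at 0.239 in dFezf1 and 0.0188 in WT by the authors' deposited table. The part of progenitor RNA in the call of pbl was not tested. Under other rules for a call pbl was lost, but the limits on counts and on group means leave it out by construction. The interval rule likewise drops 174 of the 209 called genes of this kind. These rules are therefore no separate test of pbl. The test called 1 of 26 members that average at least 100 normalized counts (background 5.07%), 1 of 28 above 0 in both group means (background 3.18%) and 1 of 29 where the 95% interval had to exclude 0 (background 3.82%), and that gene was RhoGEF64C each time. The count stayed at 2 with p-values adjusted over every gene that has one (background 6.46%) and at an adjusted p under 0.01 (background 5.05%).

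The GEFs that L3 neurons express well were not called. sif, which encodes a Rac GEF of synaptic terminals, had the highest WT level of any GEF on the list, with group means of 15.6 in dFezf1 and 9.63 in WT and a log2 fold change of 0.72 ± 0.42 (SE, adjusted p = 0.441) by the authors' deposited table. CG42674 had group means of 12.5 in dFezf1 and 6.43 in WT by the authors' deposited table. Its log2 fold change of 0.93 ± 0.43 had a 95% interval of 0.09 to 1.78, yet its adjusted p by the authors' deposited table was 0.264. CG42674 overlaps Ssk on the opposite strand, which was not called.

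trio encodes a GEF with a central role in axon guidance through Rac. Its group means were 4.46 in dFezf1 and 5.53 in WT, and its log2 fold change was -0.13 ± 0.45 (SE, adjusted p = 0.955) by the authors' deposited table. The 95% interval of trio was -1.01 to 0.74. It comes from the shrunken fold change and its SE, so it sets no firm limit on the size of a change. Exn, the fly ephexin, known for homeostatic control of transmitter release at the larval neuromuscular junction, had the second highest fold change of the list, 1.41 ± 0.72 (SE) in log2 units, with group means of 4.42 in dFezf1 and 1.17 in WT and an adjusted p of 0.352 by the authors' deposited table. The gap between the group means of Exn is wide, and its interval is wide as well.

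The remaining 7 GEFs had log2 fold changes between -0.47 and 1.02 by the authors' deposited table. RtGEF, the fly Pix protein that recruits Pak, was at 7.19 in dFezf1 and 3.05 in WT, with a log2 fold change of 1.02 ± 0.66 (SE, adjusted p = 0.516) by the authors' deposited table. Sos, the GEF that activates Ras below receptor tyrosine kinases, and Vav, a GEF regulated by tyrosine phosphorylation, had log2 fold changes of 0.50 ± 0.55 and 0.63 ± 0.62 by the authors' deposited table. Zir, a GEF of the zizimin group of DOCK proteins, and Pura, named CG33275 by the authors, had negative values of -0.36 ± 0.55 and -0.47 ± 0.80 by the authors' deposited table. cyst, named CG10188 by the authors and known for a role at epithelial junctions, had a log2 fold change of 0.22 ± 0.79 (SE), with group means of 0.427 in dFezf1 and 0.444 in WT by the authors' deposited table. GEFmeso had 0.46 ± 0.73. None of these genes passed the test.

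Of the 16 GAPs none was called by the authors' deposited table, and none had an unadjusted p under 0.05. The most abundant was RhoGAP19D, known in epithelia for inactivating Cdc42 at lateral membranes, with group means of 17.9 in dFezf1 and 13.9 in WT and a log2 fold change of 0.38 ± 0.35 (SE, adjusted p = 0.706) by the authors' deposited table. RhoGAP5A, a chimaerin-type GAP for Rac, was at 10.8 in dFezf1 and 10.9 in WT by the authors' deposited table, a log2 fold change of 0.12 ± 0.49. RhoGAPp190, which in mushroom body neurons keeps axon branches from retracting, was at 13.1 in dFezf1 and 9.3 in WT, a log2 fold change of 0.53 ± 0.45 (SE, adjusted p = 0.663) by the authors' deposited table. These 3 GAPs were among the 5 members with the highest WT levels, all of which had WT levels above those of at least 77.1% of tested genes.

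RhoGAP68F, a GAP of the p50RhoGAP type, had group means of 14.1 in dFezf1 and 9.13 in WT, and conu, a GAP that works with Moesin, 9.26 in dFezf1 and 5.71 in WT by the authors' deposited table. Their log2 fold changes were 0.57 ± 0.51 and 0.70 ± 0.45 (SE), with adjusted p of 0.688 and 0.508 by the authors' deposited table. The closest to no change was RhoGAP71E, at 5.03 in dFezf1 and 5.24 in WT, with a log2 fold change of 0.02 ± 0.38 (SE) and a 95% interval of -0.73 to 0.76 by the authors' deposited table. RhoGAP71E, at a mean normalized count of 1081, overlaps CG7650, at 2084, on the opposite strand. In the same way trio, at 1834, overlaps CG9205, at 1733. The counts of RhoGAP71E and trio are therefore uncertain where the genes overlap. In all, 8 members overlap a gene with reads, and none of those overlapping genes was called. RhoGAP18B, known for its effect on ethanol-induced behaviour, was at 5.54 in dFezf1 and 3.61 in WT by the authors' deposited table, with a log2 fold change of 0.50 ± 0.62.

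The GAP with the highest fold change was RhoGAP102A, at 1.1 in dFezf1 and 0.371 in WT, with a log2 fold change of 1.27 ± 0.79 (SE, adjusted p = 0.477) by the authors' deposited table. RhoGAP54D followed at 1.06 ± 0.80, from group means of 0.692 in dFezf1 and 0.169 in WT by the authors' deposited table. Both sit at low levels, and both had an SE above the median of 0.62 over the 29 members. The single GAP with a negative fold change was Rlip, a Ral-interacting protein with a RhoGAP domain, at 2.45 in dFezf1 and 3.13 in WT and -0.39 ± 0.67 in log2 units by the authors' deposited table. RhoGAP93B, which binds the Robo guidance receptor, had a log2 fold change of 0.41 ± 0.62, CdGAPr 0.57 ± 0.55, Graf 0.58 ± 0.67, RhoGAP92B 0.04 ± 0.75 and RhoGAP16F 0.12 ± 0.81 by the authors' deposited table. cv-c, a GAP known for its part in epithelial morphogenesis, was close to absent, with group means of 0.0337 in dFezf1 and 0.0142 in WT by the authors' deposited table.

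**Figure D2:**
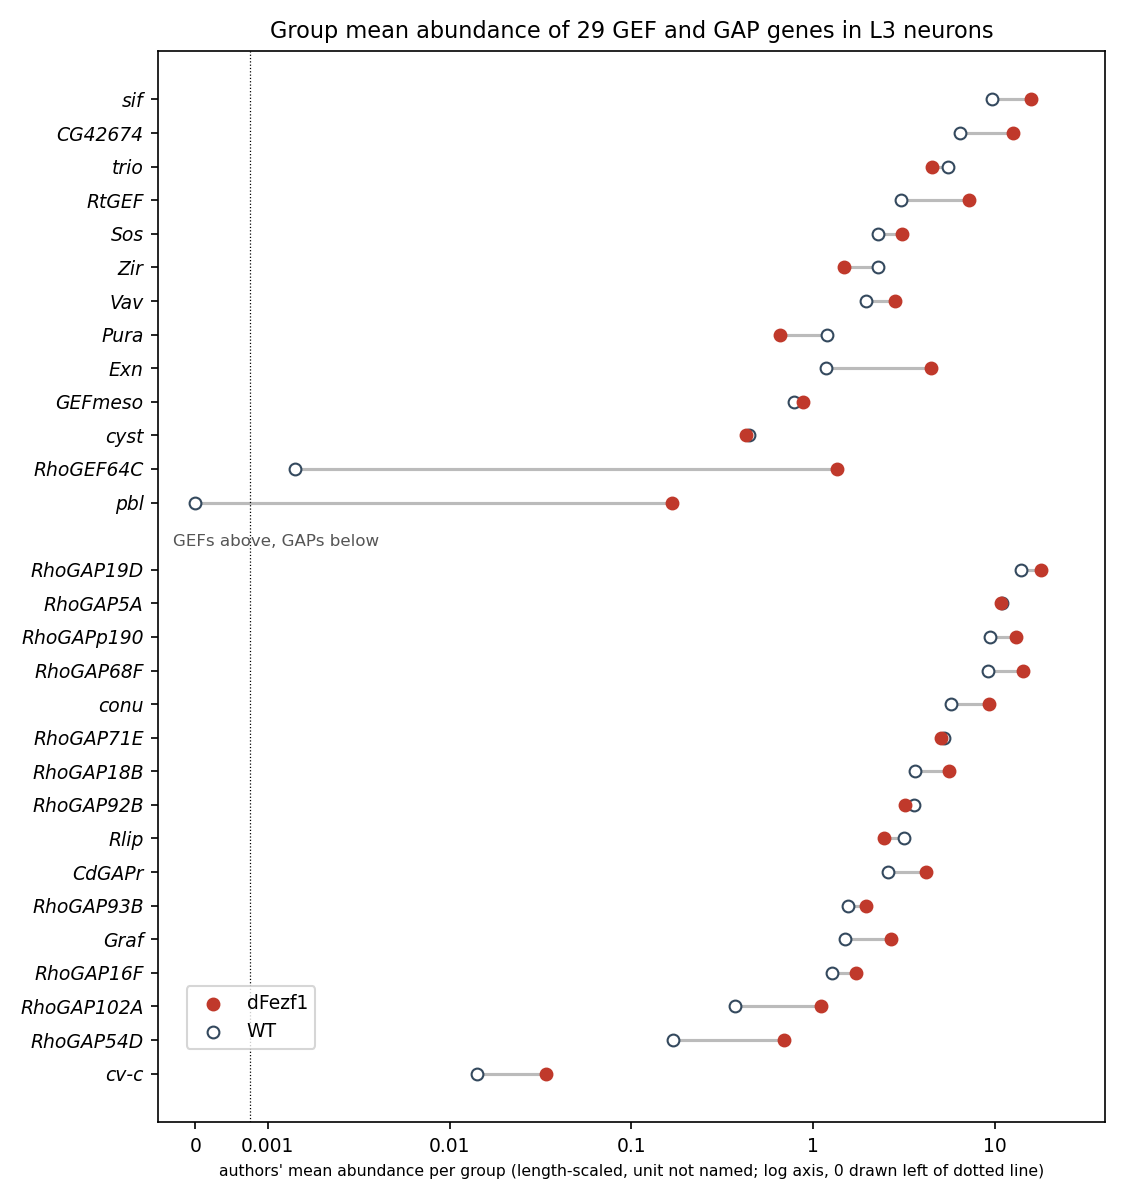
Authors' mean abundance (x axis, length-scaled with no unit named, log axis with 0 drawn at the left edge) of the 29 genes in dFezf1 (red, filled) and WT (open), with 13 GEFs above and 16 GAPs below, each ordered by WT level. The widest gaps belong to RhoGEF64C and pbl, whose WT levels are 0.00142 and 0.

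Both called genes thus came from the low end of the list by WT level. This ranking is not separate from the calls, since a gene near 0 in WT can hardly be called lower in dFezf1. By mean normalized count RhoGEF64C was at 192, against medians of 726 over the 29 members and 210 over all tested genes. WT levels of the 29 genes ranged from 0 for pbl to 13.9 for RhoGAP19D, with a median of 2.28, against a median of 2.03 over all tested genes by the authors' deposited table. Only pbl, RhoGEF64C and cv-c had a WT level below 0.1. The 10 members with the highest WT levels, from RhoGAP19D down to RhoGAP18B at 3.61, were all not called by the authors' deposited table.

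Although few genes passed the test, most fold changes had the same sign. Of the 29 members 25, or 86.2%, had a positive log2 fold change by the authors' deposited table, against 51.5% of all tested genes, and the median was 0.50, against 0.03. Among GEFs 10 of 13 and among GAPs 15 of 16 were positive in the same table, with medians of 0.54 and 0.45. By the deposited group means 21 of 29 members, or 72.4%, were higher in dFezf1, against 48.5% of all tested genes. RhoGAP5A, RhoGAP71E, RhoGAP92B and cyst are the 4 genes whose sign differs between these measures, and all had log2 fold changes of 0.22 or less. The 95% interval of a typical member reached 1.22 log2 units to either side, so the signs of single genes are mostly not settled.

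The members are long genes, and over all tested genes the sign of the fold change differed with length. In the annotation of build BDGP6 the members' exons covered a median of 6120 bases, against 2104 for all tested genes, and the genes spanned a median of 14243 bases, against 2762. The longest member by exon was sif, at 23825 bases. When the 9266 tested genes with a known length were divided into 4 equal groups by exon length, the median log2 fold change by the authors' deposited table was -0.11, -0.09, 0.03 and 0.31 from the shortest to the longest group. The share of positive fold changes was 43.5%, 43.8%, 51.1% and 67.5% in the same order. Of the 28 members with a known length 23 lay in the longest group (3597 to 71820 bases). Of these 23 members 20, or 87%, were positive, with a median of 0.53 in log2 units. In the groups of 1263 to 2104 and 2105 to 3594 bases, 1 of 1 and 3 of 4 members were positive. The part of gene length in the shared sign of the members was not tested. Within the list the rank correlation of log2 fold change with exon length was 0.18 over 28 genes, and over 9266 tested genes it was 0.21, all from the same libraries.

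**Figure D3:**
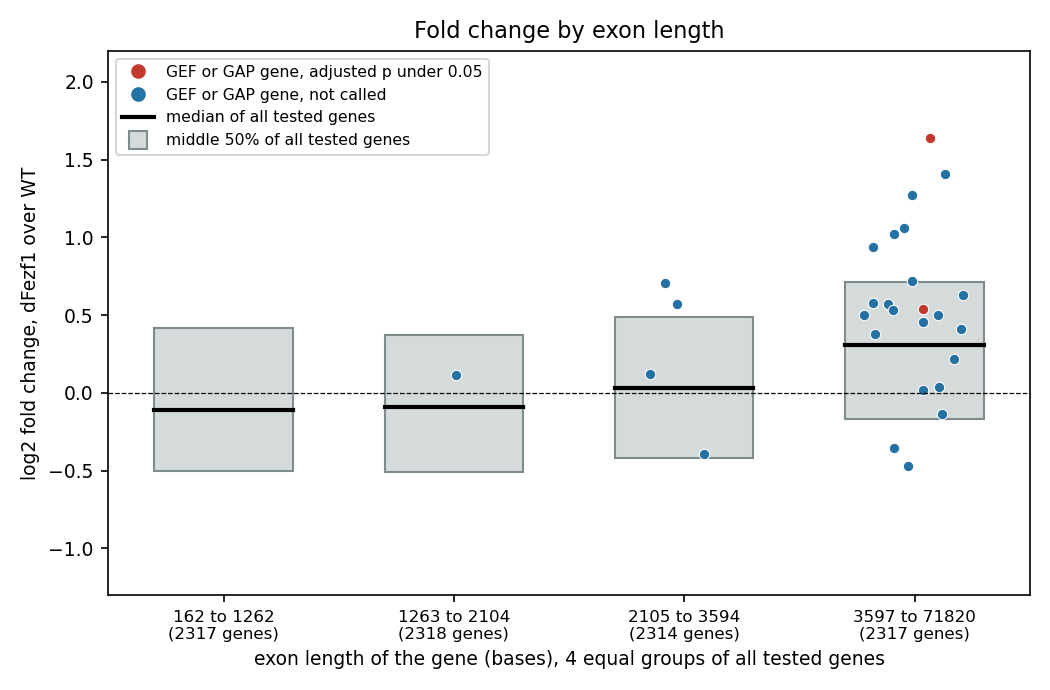
Log2 fold change of dFezf1 over WT by the authors' deposited table (y axis, log2 units) against exon length in bases, in 4 equal groups of all tested genes (x axis). Grey boxes span the middle 50% of all tested genes and black lines are their medians, which are -0.11, -0.09, 0.03 and 0.31. Dots are the 28 GEF and GAP genes with a known length, 23 of them in the longest group, red where called.

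A further 6 expressed genes carry gef or gap in a category cell that repeats it or joins it to another entry, and so fall outside the rule for the list. Among them is the gene with the lowest adjusted p of all 35. Ziz (FBgn0260486, chromosome 2L, 7472513 to 7496307, minus strand, build BDGP6), a zizimin-type GEF known for acting on Cdc42, rose in dFezf1 by 2.99 ± 0.42 (SE) in log2 units, with an adjusted p of 2.94e-10 by the authors' deposited table. Its group means there were 24.3 in dFezf1 and 2.88 in WT, a ratio of 8.44, at a mean normalized count of 8337. In dFezf1 its level was above that of every member of the list, while in WT it was close to the middle of the list. Its close relative Zir, as given above, was at -0.36 ± 0.55 in log2 units, and whether these relatives differ was not tested.

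The 5 others were not called. RhoGAP100F, the fly Syd-1 protein that organises presynaptic active zones, was at 18.3 in dFezf1 and 18.8 in WT, with a log2 fold change of -0.01 ± 0.32 (SE) and a 95% interval of -0.65 to 0.62 by the authors' deposited table. Ocrl, which joins a phosphoinositide phosphatase to a GAP-like domain, was at 0.4 in dFezf1 and 2.75 in WT, with a log2 fold change of -1.87 ± 0.75 (SE, adjusted p = 0.136) by the authors' deposited table. mbc, a DOCK-type Rac GEF of myoblast fusion, had 1.21 ± 0.80, RhoGAP1A 0.49 ± 0.50 and RhoGAP15B -0.71 ± 0.67 in log2 units by the authors' deposited table. With these 6 genes counted in, 3 of 35 genes, or 8.57%, were called, against 6.82% of all tested genes by the authors' deposited table.

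The GTPases that these proteins act on were counted next, from lists of GTPases, their inhibitors and their effectors. Of 94 tested genes in these lists 1 was higher and 1 lower by the authors' deposited table, or 2.13%, against 6.82% of all tested genes. The median mean normalized count was 827 in these lists, against 210 over all tested genes. Among genes averaging at least 100 normalized counts 1 of 83 was called (background 5.07%). Among genes above 0 in both group means 1 of 91 was called (background 3.18%). Rac1, a GTPase known for driving protrusion, was at 22.8 in dFezf1 and 22.3 in WT, with a log2 fold change of 0.14 ± 0.32 (SE, adjusted p = 0.914) by the authors' deposited table. Rac1 was thus more abundant in WT than any of the 29 regulators. Mtl, the third Rac-type GTPase, had group means of 13.7 in dFezf1 and 19.9 in WT, and Cdc42 2.24 in dFezf1 and 1.82 in WT by the authors' deposited table. The log2 fold changes of Mtl, Cdc42 and Rac2 were -0.38 ± 0.58, 0.38 ± 0.71 and 0.07 ± 0.78 by the authors' deposited table. Ras85D, the Ras that Sos activates, had -0.64 ± 0.45 and Rap1, a Ras relative that controls adhesion, 0.07 ± 0.28 in log2 units by the authors' deposited table.

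The next list held Rab GTPases, which direct vesicle traffic, and Ran, a GTPase of nuclear transport, and of its 25 tested genes 1 fell. Rab27, a Rab of regulated secretion, was listed at 0 in dFezf1 and had a mean of 1.82 in WT, with a log2 fold change of -1.42 ± 0.76 (SE, adjusted p = 0.0117) by the authors' deposited table. Its 95% interval includes 0, and its mean normalized count was 47.7. This list of Rab GTPases and Ran had a positive fold change in 5 of 25 genes and a median of -0.39. The list for the Arf family, which acts in coat assembly, had 3 of 13 positive and a median of -0.36 by the authors' deposited table. Its 13 genes include Arl6IP1, by its name an Arl6-interacting protein and not a GTPase, at -0.48 ± 0.46 in log2 units. Both lists hold short genes, with median exon lengths of 1770 and 1101 bases. The part of length in their sign was not tested either.

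Among 35 tested GTPase effectors and actin regulators 1 rose, the Cdc42-binding tyrosine kinase gene Ack, with group means of 6.08 in dFezf1 and 2.37 in WT, a log2 fold change of 1.34 ± 0.41 (SE, adjusted p = 0.0185) by the authors' deposited table. The effector list as a whole had a median log2 fold change of 0.03, with 19 of 35 genes positive. The GTPase inhibitor gene RhoGDI was at 3.52 in dFezf1 and 7.55 in WT, with a log2 fold change of -0.84 ± 0.58 (SE, adjusted p = 0.551), and the Rab inhibitor gene Gdi was at 247 in dFezf1 and 266 in WT, with -0.01 ± 0.21 by the authors' deposited table. RhoGDI and Gdi were named after their values were seen.

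GEFs and GAPs outside the deposited category were taken from further lists, and 1 of 77 tested genes was called by the authors' deposited table, or 1.3%, against 6.82% of all tested genes. This was rau, counted because the list of Ras and Rap regulators holds it, although its protein is known as a Ras-binding adaptor of receptor tyrosine kinase signalling and not as a GEF. It had group means of 15.1 in dFezf1 and 2.67 in WT, a log2 fold change of 2.02 ± 0.62 (SE, adjusted p = 0.0203) by the authors' deposited table. The median log2 fold change of the 6 tested genes listed as Ras and Rap GEFs, rau among them, was 0.93. Medians of the other lists included 0.60 for 9 Ras and Rap GAPs and -0.34 for 9 Arf GAPs. Those of 15 Rab GEFs and 21 Rab GAPs were -0.19 and -0.12 by the authors' deposited table. The GEF gene RhoGEF3, named here after its values were seen, was not called, at 11.3 in dFezf1 and 4.11 in WT, with a log2 fold change of 1.38 ± 0.49 (SE, adjusted p = 0.0658) by the authors' deposited table.

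**Figure D4:**
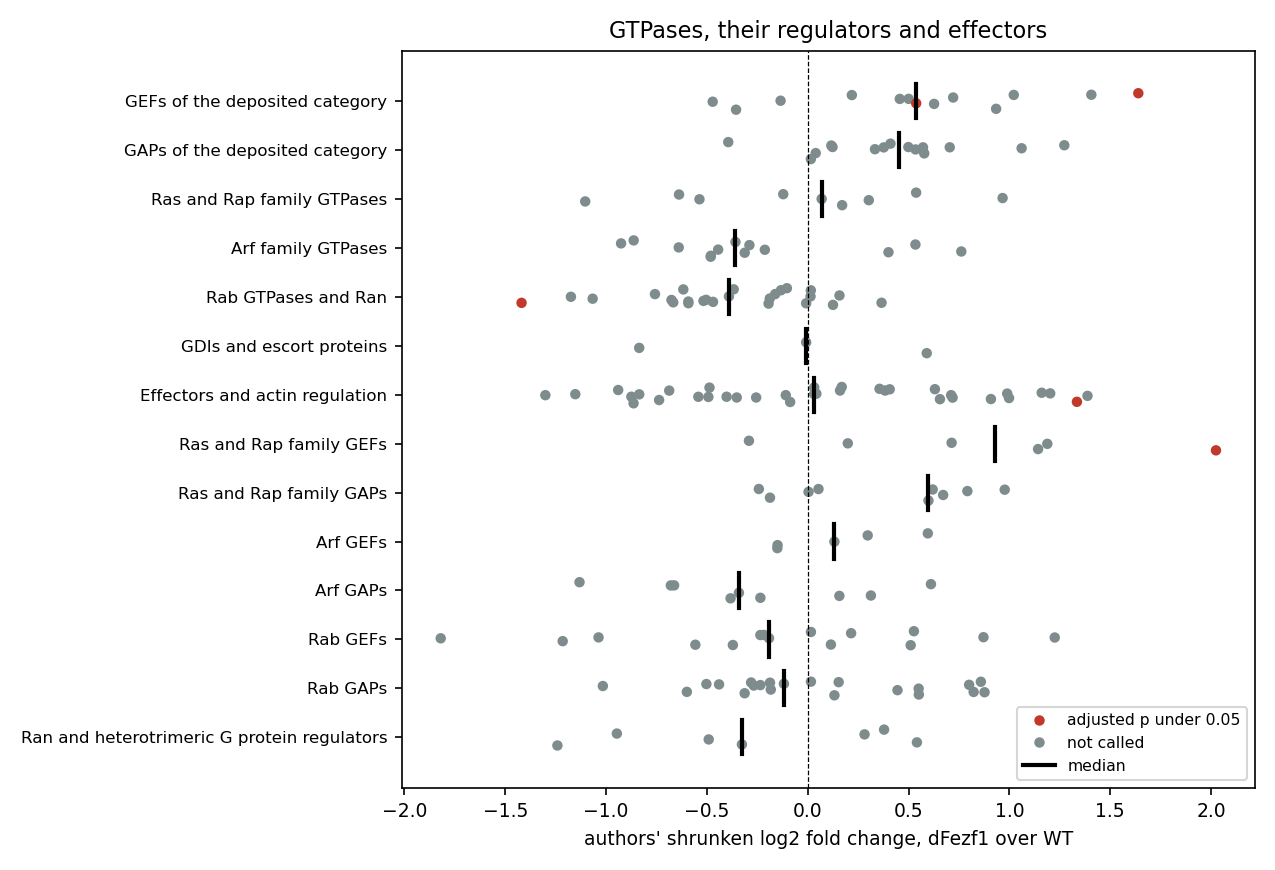
Log2 fold changes of dFezf1 over WT by the authors' deposited table (x axis, log2 units) for the GEFs and GAPs of the deposited category and for lists of GTPases, inhibitors, effectors and regulators of other GTPase families (y axis). Each dot is a tested gene, red where called, and black bars are medians. The medians of the GEFs and GAPs of the category are 0.54 and 0.45. Those of the Arf family list and of Rab GTPases with Ran are -0.36 and -0.39.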

How the data were processed

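L3 neurons were sorted from optic lobes, their RNA was purified on RNeasy columns, and Smart-seq2 cDNA was turned into libraries with Nextera reagents, per the labels' protocols. DESeq2, Salmon, STAR and FastQC, without versions, and the build BDGP6 are named in the submitters' processing notes, which do not say what each tool made. Groups were taken from the genotype labels: 3 dFezf1 and 3 WT samples.

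Per the file headers, the authors' deposited table holds a mean normalized count over all libraries and 2 group means, signal values that are never negative. It also holds a log2 fold change with its standard error, a test statistic (a score in the deposited table), p-values and adjusted p-values, per the file headers. In all 9755 genes with a p-value, that value is the normal two-sided probability of the statistic within 0.001, and the adjusted p equals the Benjamini-Hochberg value over 9387 genes within 0.001. Fold changes are shrunken: divided by the SE they differ from the statistic by 1% or more in 3798 genes, 5 members among them (pbl, RhoGEF64C, RhoGAP102A, RhoGAP54D and cv-c). The group means scale with length: the mean normalized count divided by the mean of both group means followed exon length with a Spearman correlation of 0.942 over 7863 genes.

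A further 12 columns of values per library carry codes that match no sample label. They were given no group and were not used, so the planned edgeR fits, depth per library and replicate spread are not given, and the authors' comparison was used. The design text calls the samples biological replicates and does not say how many animals each holds.

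Calls needed an adjusted p under 0.05. The 95% intervals are the fold change with a normal interval from its SE. Members are rows of category gef or gap with a mean normalized count above 0; 1 such row and 1 of the GTPases below are not reported here. Members, lists and alternatives were chosen with earlier results of these data known. Named genes were called members, the 10 with the highest WT mean, the 5 uncalled with the smallest adjusted p, uncalled members with a fold change of at least 1.5 log2 units (none met this), called list genes and stated GTPases. Other members were named to account for the whole list. Of 266 listed symbols 11 matched no gene and were left out. Gene identifiers were matched to current symbols and to exon lengths of the BDGP6 annotation. Of the 29 members 28 had a position there, each with the deposited start; cv-c was taken as deposited, and 3 symbols differed. Python 3.11.15, pandas 2.3.3, numpy 2.4.6, SciPy 1.17.1 and matplotlib 3.10.9 were used, and the adjustment was tested on simulated data.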

Additional observations from a re-analysis of the deposited data

How the results depend on the processing

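Values per library were not used, so leaving out replicates and the DESeq2 fit planned as an alternative were not run. No paired analysis was possible because the values come from the authors' own comparison and the labels give no shared replicate numbers. The count of 2 called members stayed at 2 with p-values adjusted over all 9755 genes, at an adjusted p under 0.01 and without rows whose position differs from the annotation. It was 1 among genes averaging at least 100 normalized counts, 1 among genes above 0 in both groups and 1 where the 95% interval must exclude 0, and in each case pbl was lost and RhoGEF64C remained. The first 2 of these settings leave pbl out by construction. The third dropped 174 of the 209 called genes that were listed at 0 in WT and above 0 in dFezf1. Counting cells that join gef or gap to another entry, chosen after the data were seen, gave 3. For GTPases, inhibitors and effectors the count of 2 was 1 under those same 3 settings, losing Rab27, and 0 at an adjusted p under 0.01. The 25 members with a positive fold change became 21 of 29 by group means and 22 of 26 among those averaging at least 100 normalized counts, both chosen after the data were seen. For 24 named genes, calls were also compared with p-values adjusted over all genes, under the limits on low levels and under the interval rule. The stricter threshold was not part of this count. Of 92 calls 90 were as reported. The other 2 are pbl and Rab27, whose adjusted p stayed under 0.05 but whose 95% interval includes 0. Settings that leave pbl or Rab27 out by construction are not among the 92. The interval rule cannot change a gene that was not called, so those agreements were fixed in advance. The missing per-library values limit all statements to the authors' SE. That SE goes with the shrunken fold change, so it does not show how precisely genes at the lowest levels were measured. Its median was 0.58 over the 791 tested genes listed at 0 in WT and above 0 in dFezf1, against 0.61 over all tested genes.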
